A study of Mus musculus with 6 samples.

Results

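The pigment cell genes of db/db wound tissues were Tyr, Tyrp1, Dct, Pmel, Mlana, Mitf, Oca2 and Slc45a2. These 8 genes were chosen by name, for their known roles in melanocytes, from a table of 33184 genes whose Ensembl IDs were matched to mouse symbols. Their IDs were ENSMUSG00000004651 (Tyr), ENSMUSG00000005994 (Tyrp1), ENSMUSG00000022129 (Dct), ENSMUSG00000025359 (Pmel), ENSMUSG00000024806 (Mlana), ENSMUSG00000035158 (Mitf), ENSMUSG00000030450 (Oca2) and ENSMUSG00000022243 (Slc45a2). All 8 were found, and all 8 passed the filter on low values, which asked for 0.5 FPKM or more on average over the libraries. FPKM counts the fragments of a gene relative to its length in kilobases and to the mapped total of the library, so levels can be set side by side between genes.

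The 6 libraries came from skin wounds of db/db mice on the BLKS background, a line that lacks the working long form of the leptin receptor and becomes obese and diabetic. In every mouse the hair was removed and a round wound of 6 mm was cut through epidermis and dermis. SFRP2 siRNAs or a control siRNA (NC) were given by injection beside the wound at dpi1, where dpi stands for days post-injury. The tissue was frozen at dpi4, although the sample titles carry day 3. Each group had 3 libraries, taken as 3 mice, which the sources do not state, so p-values measure the spread between these samples and part of it may be technical. The treated titles run from siRNA-1 to siRNA-3, the names that the study also gives to its SFRP2 siRNA sequences, so sequence and animal cannot be told apart within this group. The age of the mice and the way the hair was removed were not given in the sources used here. No mouse without diabetes and no unwounded skin was among the libraries.

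Melanocytes make melanin inside melanosomes, organelles that are passed on to keratinocytes. In hairy mouse skin most of them sit in the hair follicles, and they make pigment while the follicle is in its growth phase. Tyrosinase (Tyr) starts melanin synthesis from tyrosine, and the related enzymes Tyrp1 and Dct act later in the path to eumelanin. Pmel forms the fibrils on which melanin is laid down, Mlana is a melanosome protein that binds Pmel, and Oca2 and Slc45a2 are transporters needed for the right melanosome pH. Mitf is the transcription factor that activates most of these genes through E-box sites, in melanocytes together with Sox10. Mitf is also expressed in mast cells, macrophages and other cells, from several promoters.

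The E-box sites of the 3 enzyme genes are shown here because these genes moved together in the libraries described next. RefSeq promoter windows on GRCm38.p6, from 250 bases before to 50 bases after each annotated start, were given for 5 of the 8 genes, namely Tyr, Tyrp1, Dct, Oca2 and Mitf, the last with several windows. The longest run of letters shared by the windows of Tyr, Tyrp1 and Dct was GTCATGTGCT, letters of the M-box, an extended E-box site of Mitf. It was found from these 3 windows, so its presence in them follows from the search. Its first base lay 23 bases before the start of Tyr, 48 before that of Tyrp1 and 152 before that of Dct. Of all 32851 windows, 61 held these letters on either strand, or 0.186%, and the other members with a window did not. The 250 bases before each start are printed 5′ to 3′ on the strand of the gene, with the M-box letters in capitals. They span chr7:87493513-87493762 for Tyr (minus strand), chr4:80833963-80834212 for Tyrp1 (plus strand) and chr14:118052247-118052496 for Dct (minus strand).
Tyr: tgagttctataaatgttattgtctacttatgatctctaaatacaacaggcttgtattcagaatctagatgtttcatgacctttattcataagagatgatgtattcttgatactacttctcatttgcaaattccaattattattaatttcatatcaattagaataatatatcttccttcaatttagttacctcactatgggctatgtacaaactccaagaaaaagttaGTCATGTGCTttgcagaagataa
Tyrp1: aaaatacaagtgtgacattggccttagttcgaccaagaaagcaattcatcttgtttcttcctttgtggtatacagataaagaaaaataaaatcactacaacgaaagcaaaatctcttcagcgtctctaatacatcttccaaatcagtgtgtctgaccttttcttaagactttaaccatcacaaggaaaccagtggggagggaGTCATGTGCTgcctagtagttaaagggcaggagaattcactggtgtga
Dct: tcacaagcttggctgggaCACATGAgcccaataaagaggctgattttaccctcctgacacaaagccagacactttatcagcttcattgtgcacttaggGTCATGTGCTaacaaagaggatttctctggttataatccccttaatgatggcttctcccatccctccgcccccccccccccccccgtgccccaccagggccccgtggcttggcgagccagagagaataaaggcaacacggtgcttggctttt

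The shorter M-box core TCATGTG, searched on both strands, lies inside this longer run. Its presence in the same 3 members thus also follows from the search. No other member with a window held it, and 4.31% of all 27025 genes with a window did. Among the other melanocyte genes read further on, 1 of 4 regulators and receptors with a window held it (Mc1r). So did 4 of 8 melanosome membrane genes (Slc24a5, Trpm1, Tspan10 and Slc7a11) and 1 of 13 biogenesis genes (Hps1). Of the 5 ligands, 4 transfer genes and 3 relatives of Mitf with a window, 0 held it. Dct held it a second time, on the other strand, 232 bases before the start, where it reads CACATGA in the printed sequence. The E-box CATGTG lies inside both forms. Among the members it was, apart from Tyr, Tyrp1 and Dct, in the window of Oca2, on the other strand. Of all genes with a window, 15.9% held it. None of the 5 members held the E-box CACGTG in its windows, against 8.09% of all genes with a window. These matches describe letters in the windows and show no binding.

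The read totals of the libraries lay between 42.9 M and 47.1 M, M standing for the prefix mega, with 26081 to 27189 genes above 0. The siRNA target went against the labels. Sfrp2 had 11.6, 40.6 and 14.1 FPKM in NC 1 to 3 and 50.6, 54.6 and 55.2 FPKM in SFRP2-siRNA 1 to 3, so it was higher in every treated library. Its log2 fold change was 1.45 (SE 0.43, limma, unadjusted p = 0.0125, adjusted p = 0.518), which missed the threshold after adjustment. The name SFRP2-siRNA is therefore used for these libraries as a label only. The library SFRP2-siRNA 1 stood apart in its hair follicle genes, as given further on, and results that rest on it are given with and without it.

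Tyr had 3.12, 0.688 and 3.05 FPKM in NC 1, 2 and 3 and 0.118, 3.50 and 7.03 FPKM in SFRP2-siRNA 1, 2 and 3. The lowest and the highest level were thus both in the SFRP2-siRNA group, 59.6-fold apart, and the NC levels lay between them. Behind the lowest value stood 36 reads and behind the highest 2356, so the gap is far beyond counting error. Tyrp1, the most abundant of the 3 enzymes in 5 of the 6 libraries, had 28.8, 6.47 and 22.1 FPKM in NC 1 to 3. In SFRP2-siRNA 1 to 3 it had 0.791, 28.4 and 55.0 FPKM. The order of the libraries was close to that of Tyr, with SFRP2-siRNA 1 lowest, NC 2 next and SFRP2-siRNA 3 highest. Dct, dopachrome tautomerase, had 18.9, 4.92 and 16 FPKM in NC 1 to 3 and 1.26, 20 and 38.1 FPKM in SFRP2-siRNA 1 to 3. The fall in SFRP2-siRNA 1 was smaller for Dct, 15.1-fold under the median of the other 5 libraries, than the 35.9-fold of Tyrp1 and the 26.4-fold of Tyr.

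Pmel reached the highest level of the 8 genes, with 51.1, 8.99 and 30.4 FPKM in NC 1 to 3 and 1.83, 39.1 and 81.5 FPKM in SFRP2-siRNA 1 to 3. The low libraries were again SFRP2-siRNA 1 and NC 2. In GENCODE vM21 its exons share 105 bases (4.58%) with Dgka and 34 bases (1.48%) with Cdk2 on the opposite strand, and whether strand was used in counting was not given. Dgka had 11.8 to 15.4 FPKM over the 6 libraries and Cdk2 6.14 to 9.79, without the fall of Pmel in SFRP2-siRNA 1, and no other member shared exonic bases with a gene. Mlana had 21.5, 4.34 and 16.6 FPKM in NC 1 to 3 and 0.353, 12.9 and 33.4 FPKM in SFRP2-siRNA 1 to 3. Its levels ran over 94.7-fold, and 16 reads stood behind the lowest.

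The transporters were less abundant and kept the same low and high libraries. Slc45a2 had 2.52, 0.580 and 1.80 FPKM in NC 1 to 3 and 0.0781, 2.45 and 4.65 FPKM in SFRP2-siRNA 1 to 3, a 59.5-fold range. Oca2 had 1.56, 0.458 and 1.05 FPKM in NC 1 to 3 and 0.0118, 1.95 and 4.53 FPKM in SFRP2-siRNA 1 to 3. Only 2 reads stood behind the Oca2 value of SFRP2-siRNA 1, against 85 to 846 reads in the other libraries, so no fold against it is given.

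Mitf did not share this pattern. It had 2.61, 4.46 and 4.62 FPKM in NC 1 to 3 and 3.15, 5.25 and 5.53 FPKM in SFRP2-siRNA 1 to 3. The lowest library was NC 1, not SFRP2-siRNA 1, and the whole range was 2.12-fold. In SFRP2-siRNA 1, where the enzymes were at their lowest, 839 reads of Mitf were counted. There Mitf took 41.6% of the summed FPKM of the 8 genes, against 2.01% in NC 1 and 14.4% in NC 2. Mitf transcripts from its different promoters are not told apart in a table of genes.

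**Figure D1:**
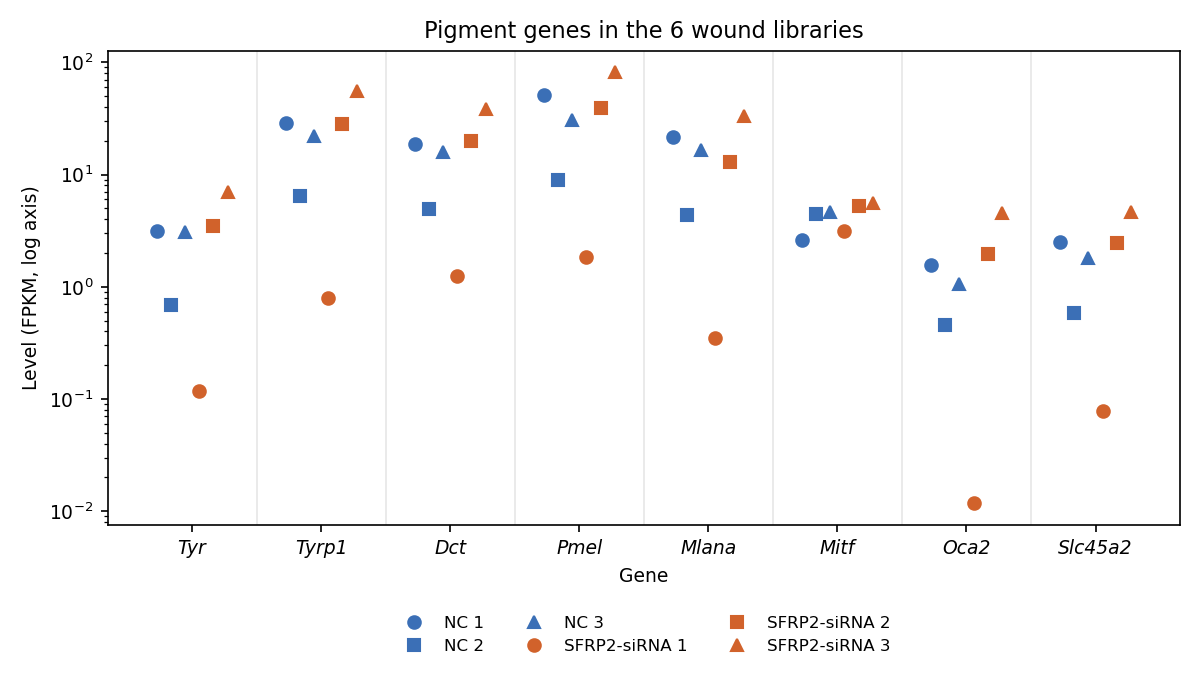
FPKM of the 8 pigment genes in each library on a log axis, with blue symbols for NC and orange symbols for SFRP2-siRNA. In 7 genes the orange circle (SFRP2-siRNA 1) is lowest, the blue square (NC 2) next and the orange triangle (SFRP2-siRNA 3) highest, while the 6 points of Mitf lie within 2.12-fold.

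The 7 genes other than Mitf were all lowest in SFRP2-siRNA 1, next lowest in NC 2 and highest in SFRP2-siRNA 3. Of the 16005 genes tested, 342 had this order, or 2.14%, and 2287 were lowest in SFRP2-siRNA 1, or 14.3%. SFRP2-siRNA 1 was at least 10-fold under the median of the other 5 libraries in the same 7 genes, against 321 of all genes tested, or 2.01%. The order and the 10-fold limit were chosen after the values had been seen, so these counts describe the genes and test nothing. Over the 6 libraries, Pearson's r of log2(FPKM + 1) between these 7 genes was 0.90 to 1.00 in 21 pairs. Without SFRP2-siRNA 1 and NC 2, the libraries farthest from the median, it was 0.74 to 1.00 over 4 libraries. Mitf had an r of 0.37 to 0.52 with the others over 6 libraries. All points share the same libraries, and no p is given.

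Levels relative to Tyrp1 were far steadier than the levels. Over the 5 libraries other than SFRP2-siRNA 1, the ratio of Slc45a2 to Tyrp1 stayed between 0.0814 and 0.0896 and that of Dct between 0.658 and 0.760, although Tyrp1 itself ran from 6.47 to 55.0 FPKM. The ratio of Tyr to Tyrp1 was 0.106 to 0.138, and that of Pmel 1.37 to 1.77. Mlana and Oca2 varied more, by 1.66-fold and 1.74-fold, with Mlana lowest against Tyrp1 in SFRP2-siRNA 2. Mitf to Tyrp1 ran from 0.0907 to 0.690, or 7.60-fold. In SFRP2-siRNA 1 the ratio to Tyrp1 was 1.59 for Dct, 2.31 for Pmel and 3.99 for Mitf, all above the other libraries. Pmel had only 1.83 FPKM there, with Dgka at 15.3 and Cdk2 at 7.78 FPKM. Whether reads from the exons it shares with them raised its ratio was not tested. The ratio was 0.149 for Tyr, 0.0988 for Slc45a2 and 0.446 for Mlana, each close to the range of the others, and 0.0149 for Oca2, which rests on 2 reads.

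The comparison of the groups asks whether the pigment genes differed between the libraries labelled SFRP2-siRNA and NC. None of the 8 genes was called, and the 2 groups overlapped for every gene. The call needed an adjusted p under 0.05 (limma, Benjamini-Hochberg over all 16005 genes) and an absolute log2 fold change above 1. No tested gene passed it, so the background is 0% in this fit. The study itself reported genes past the same thresholds in wound tissues, more of them lower than higher, with DESeq2, which takes counts. That result was not repeated here. At an unadjusted p under 0.05, 1533 genes passed (9.58%) and 0 of the 8 members, and limma voom on reads recovered from the FPKM values called 0 genes, with 1540 of 15821 under that p. Groups did not overlap for 2854 genes, or 17.8%, and for 0 of the 8 members.

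Mean levels show how wide the groups were. Tyrp1 had 19.1 ± 11.5 FPKM in NC and 28.1 ± 27.1 FPKM in SFRP2-siRNA (means ± SD, n = 3 each). Pmel had 30.1 ± 21.0 and 40.8 ± 39.9 FPKM, and Tyr 2.29 ± 1.39 and 3.55 ± 3.46 FPKM. In each of these genes the SD of the SFRP2-siRNA group was about as large as its mean. Within NC alone, the highest library was 3.41-fold to 5.68-fold above the lowest over the 7 genes other than Mitf. Mitf had 3.90 ± 1.12 FPKM in NC and 4.64 ± 1.30 FPKM in SFRP2-siRNA, a difference within the spread.

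Log2 fold changes, SFRP2-siRNA minus NC on the log2(FPKM + 1) scale, were above 0 in 4 members and below 0 in 4, with a median of 0.05 against 0.13 over all genes tested. Mean FPKM was higher in SFRP2-siRNA for all 8, so in Tyrp1, Dct, Pmel and Mlana the mean on the log scale, where the low SFRP2-siRNA 1 weighs more, had the opposite sign. The log2(FPKM + 1) scale also understates the change of low genes such as Oca2. The enzymes had 0.17 for Tyr (95% interval -1.57 to 1.92), -0.27 for Tyrp1 (-3.29 to 2.75) and -0.04 for Dct (-2.55 to 2.47). Mlana had the lowest value, -0.57 (-3.38 to 2.24), and Pmel had -0.27 (-3.28 to 2.74). Oca2 had 0.37 (-1.03 to 1.77), Slc45a2 0.14 (-1.32 to 1.60) and Mitf 0.20 (-0.38 to 0.79). These intervals hold changes of more than 2-fold in either direction for every member except Mitf, so changes of that size lie within the error of these groups. Adjusted p-values (limma) ran from 0.708 for Mitf to 0.987 for Dct, and two-sided exact permutation p-values from 0.5 to 1, where 3 against 3 libraries can reach no less than 0.1. The residual SD of the 7 genes other than Mitf was above that of 97.8% or more of all genes tested, and the median over the 8 members was 1.41 against 0.21 over all genes.

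The sign of these differences rested on single libraries. Without SFRP2-siRNA 1, all 8 members were above 0, with a median of 1.01 against 0.15 over all genes. Oca2 then had a log2 fold change of 1.04 and the smallest p (limma, unadjusted p = 0.0149, adjusted p = 0.412), and Tyrp1 had 1.23. Without SFRP2-siRNA 3 the median was -0.66, Mlana had -1.57 and Tyrp1 -1.25. None of the 8 was called in either case. Without NC 2 the median was -0.42.

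**Figure D2:**
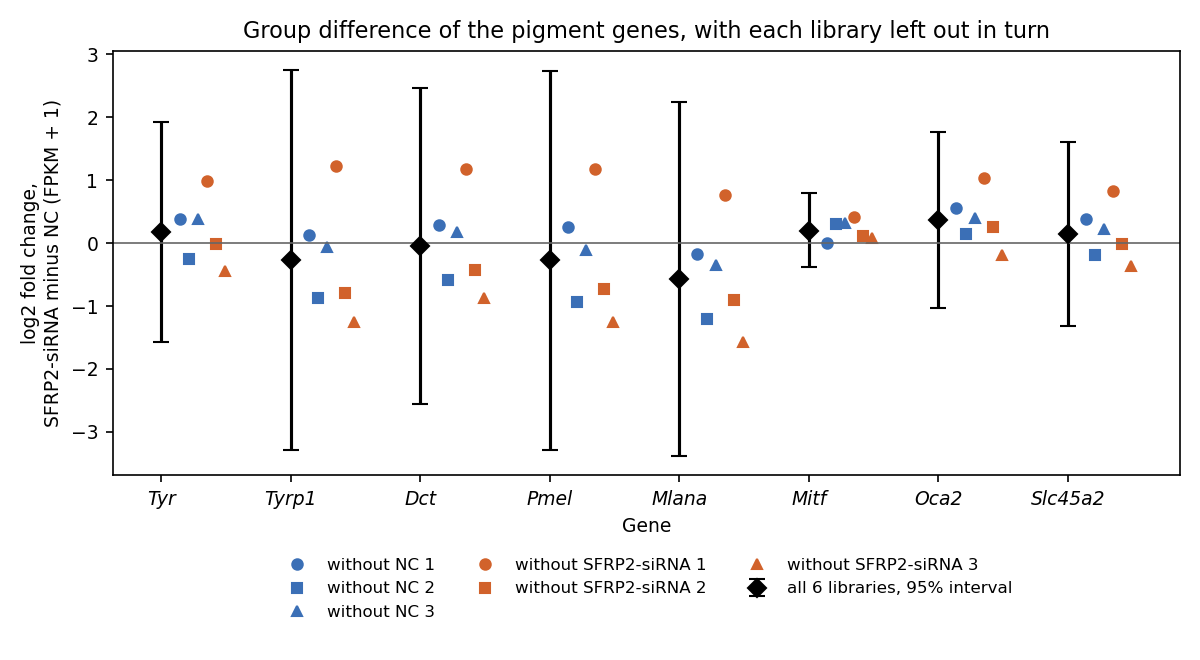
Log2 fold change of each pigment gene, SFRP2-siRNA minus NC on the log2(FPKM + 1) scale. Black diamonds with bars are the values of all 6 libraries with 95% intervals, and coloured symbols leave out 1 library each. Leaving out SFRP2-siRNA 1 (orange circle) puts Tyrp1 at 1.23 and leaving out SFRP2-siRNA 3 (orange triangle) puts it at -1.25.

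Other genes of the pigment cell were read from lists of their roles. Among melanosome membrane proteins, 4 of 9 genes had the order of the 7 pigment genes. With all 6 libraries, 0 of 9 had an unadjusted p under 0.05. Trpm1, a cation channel that melanocytes share with the retina, had 4.17, 0.868 and 2.82 FPKM in NC 1 to 3 and 0.0711, 3.63 and 7.10 FPKM in SFRP2-siRNA 1 to 3. The cation exchanger Slc24a5 had 2.94, 0.971 and 2.57 FPKM in NC and 0.4, 3.46 and 7.30 FPKM in SFRP2-siRNA 1 to 3. Both had the library order of Tyr at its ends, as did the tetraspanin Tspan10 (0.207 to 3.37 FPKM) and the melanosome receptor Gpr143 (0.0234 to 2.68 FPKM, with 2 reads at the lowest). Gpnmb, a relative of Pmel that macrophages express strongly, had 26.7 FPKM in NC 2 and 31.1 to 47.4 FPKM elsewhere. Atp7a had 0.605 to 2.27 FPKM, Tpcn2 4.21 to 9.92, Mfsd12 3.75 to 6.99 and Slc7a11 1.94 to 5.48, and none of these 4 was lowest in SFRP2-siRNA 1. Without that library, Slc24a5, Gpr143, Tspan10 and Gpnmb had an unadjusted p under 0.05 (limma), all higher in SFRP2-siRNA. In that fit 1474 of 15984 genes were under that p, in either direction, and 0 were called.

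Of 7 regulators and receptors, 6 were tested. Mc1r, the melanocortin receptor that drives eumelanin synthesis, had 1.60, 0.252 and 0.786 FPKM in NC 1 to 3 and 0.0128, 1.24 and 2.18 FPKM in SFRP2-siRNA 1 to 3, with 2 reads at the lowest. Kit, the receptor of stem cell factor on melanocytes and mast cells, had the same lowest, next lowest and highest libraries over a narrower range, 1.85 to 4.35 FPKM. Sox10, which melanocytes share with Schwann cells, was lowest in NC 2 (1.01 FPKM), had 1.60 FPKM in SFRP2-siRNA 1 and was highest in SFRP2-siRNA 3 (3.23 FPKM). Tfap2a had 6.03 to 13.2 FPKM and Erbb3 8.17 to 16.4 FPKM, both lowest in SFRP2-siRNA 1. Pax3, an activator of Mitf, had 0.0452 to 0.449 FPKM and was under the filter.

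Ednrb, the endothelin receptor of melanocyte precursors, went another way. It had 17.6, 26.6 and 19.6 FPKM in NC 1 to 3 and 27.6, 30.1 and 33.7 FPKM in SFRP2-siRNA 1 to 3. The groups did not overlap, and the log2 fold change of 0.52 was not called (limma, unadjusted p = 0.0279, adjusted p = 0.518). Among the 6 tested genes of this list it alone had an unadjusted p under 0.05, against 9.58% of all genes tested. Endothelial cells also express this receptor.

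The ligands had 3 of 5 measured genes past the filter, with 0 under an unadjusted p of 0.05. Kitl, stem cell factor, had 5.28 to 6.42 FPKM in NC and 6.68 to 8.14 FPKM in SFRP2-siRNA, which did not overlap (log2 fold change 0.28, limma, unadjusted p = 0.0721, adjusted p = 0.523). Edn1 had 2.89 to 7.84 FPKM and Hgf 0.293 to 0.788 FPKM, with overlapping groups. Edn3, the endothelin that acts on melanocyte precursors, was under the filter with 0.0566 FPKM in SFRP2-siRNA 1, 0.125 FPKM in NC 2 and 1.33 FPKM in SFRP2-siRNA 3. Pomc, the precursor of melanocortins, was also under it, with 0.0707 to 0.480 FPKM.

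Genes of melanosome biogenesis and transport, most of which act on lysosome-related organelles in many cell types, did not share the range of the pigment genes. None of 15 biogenesis genes was lowest in SFRP2-siRNA 1. The most abundant were Dtnbp1 (18.5 to 19.9 FPKM), Ap3d1 (13.1 to 18.7), Rab38 (9.50 to 17.1) and Rab32. Of the 15, 1 had an unadjusted p under 0.05, against 9.58% of all genes tested. This was Rab32, a small GTPase that brings enzymes to melanosomes, with 9.45, 13.4 and 11.1 FPKM in NC 1 to 3 and 19.2, 16 and 14.5 FPKM in SFRP2-siRNA 1 to 3 (log2 fold change 0.52, limma, unadjusted p = 0.0211, adjusted p = 0.518). Without SFRP2-siRNA 1, where Rab32 was highest, its unadjusted p was 0.0641 (limma). Of the 4 transfer genes, which tie melanosomes to myosin, 1 had an unadjusted p under 0.05 with all libraries, against the same 9.58%. This was Rab27a, with 3.61 to 4.41 FPKM in NC and 5.66 to 6.28 FPKM in SFRP2-siRNA (log2 fold change 0.47, limma, unadjusted p = 0.00614, adjusted p = 0.518). Mlph, which links Rab27a to Myo5a, was the 1 transfer gene with the order of the pigment genes, from 0.322 FPKM in SFRP2-siRNA 1 and 0.693 FPKM in NC 2 to 1.90 FPKM in SFRP2-siRNA 3. Myo5a had 6.08 to 11.5 FPKM and Mreg 13.6 to 25.7 FPKM.

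The relatives of Mitf were also read, and 0 of 3 had an unadjusted p under 0.05. Tfec, which macrophages express, had 0.531 to 1.09 FPKM in NC and 1.10 to 2.48 FPKM in SFRP2-siRNA, highest in SFRP2-siRNA 1. Tfeb had 3.40 to 5.50 FPKM and Tfe3 7.78 to 9.35 FPKM. None of the 3 was lowest in SFRP2-siRNA 1.

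**Figure D3:**
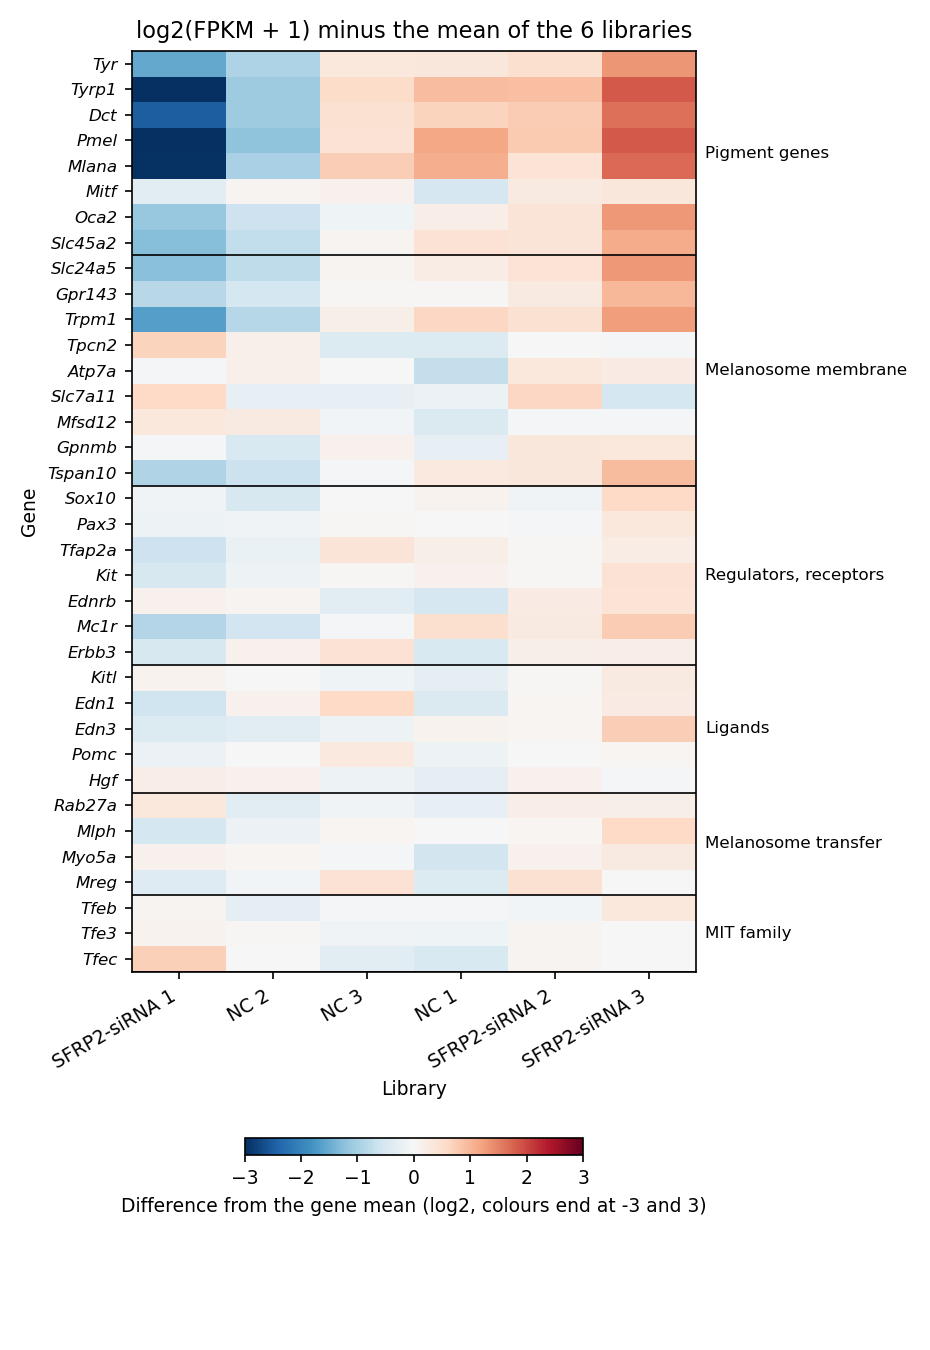
Differences of log2(FPKM + 1) from the mean of the 6 libraries for the pigment genes and genes of their pathway, blue for lower and red for higher, with the libraries ordered from the lowest to the highest pigment level. The 7 pigment genes, Slc24a5, Gpr143, Trpm1, Tspan10 and Mc1r change from blue in SFRP2-siRNA 1 to red in SFRP2-siRNA 3, and the row of Mitf stays pale.

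In bulk tissue, fewer pigment cells and less RNA of these genes per cell cannot be told apart. Markers of the growing hair follicle, whose bulb holds the pigment cells, were low with the pigment genes in SFRP2-siRNA 1. All 23 tested hair matrix and shaft genes were lowest in SFRP2-siRNA 1, against 14.3% of all genes, and 22 of the 23 were at least 10-fold under the median of the other libraries there. Their summed FPKM was 38.5 in SFRP2-siRNA 1 and 3608 to 7913 in the other 5 libraries, and none was at 0 in any library. The most abundant were the inner root sheath keratins Krt71, Krt25 and Krt27 and trichohyalin (Tchh), of which Krt71 had 6.17 FPKM in SFRP2-siRNA 1 and 744.2 to 1591 FPKM elsewhere. None of the 23 had an unadjusted p under 0.05, and their median log2 fold change of -1.14 was 0.45 without SFRP2-siRNA 1. Without that library, the shaft keratins Krt31, Krt33a, Krt33b, Krt34, Krt81, Krt83 and Krt86 were under that p (limma), with log2 fold changes of 1.19 to 1.64. Foxn1 (0.72) and Shh (0.68) were under it too, and no other of the 23 was. Over all genes, 1474 of 15984 were under it in that fit, in either direction, and 0 were called. The full library order of the pigment genes was in 8 of the 23, against 2.14% of all genes. Away from the low libraries the link varied between genes. Over the 4 libraries without SFRP2-siRNA 1 and NC 2, r with the pigment level ran from -0.43 (Krt72) to 0.94, below 0 in 7 genes. The part of the follicle in the levels of the pigment genes was not tested.

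The 2 low libraries differed in how the pigment genes stood to the follicle. The follicle genes were split after the values had been seen, into 6 inner root sheath keratins, 8 hair shaft keratins and 6 matrix regulators. In SFRP2-siRNA 1 all 3 classes were low with the pigment genes. The summed FPKM there, as a percent of the mean of the 4 libraries other than NC 2, was 3.22% for the 7 pigment genes, 0.542% for the inner root sheath, 0.569% for the shaft and 3.29% for the matrix regulators. In NC 2 the pigment genes were at 19.2% of the mean of the same 4 libraries, the shaft at 32.2% and the matrix regulators at 50.1%, but the inner root sheath was at 85.6%. NC 2 was the next lowest library in 7 of 7 pigment genes, 8 of 8 shaft keratins and 6 of 6 matrix regulators, and in 0 of 6 inner root sheath keratins.

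Pigment gene FPKM per 100 FPKM of inner root sheath keratins was 5.74, 0.842 and 1.95 in NC 1 to 3 and 22.3, 2.40 and 6.86 in SFRP2-siRNA 1 to 3. The highest ratio was thus in the library with the least of both, and the lowest in NC 2. Per 100 FPKM of matrix regulators the spread was smaller, with 108.6, 40.1 and 65.7 in NC 1 to 3 and 102.6, 89.0 and 151.7 in SFRP2-siRNA 1 to 3. On this measure SFRP2-siRNA 1 lay among the other libraries and NC 2 was the lowest. In SFRP2-siRNA 1, however, Foxn1 made up 1.85 of the 4.33 FPKM of the matrix regulators. Foxn1 was 7.98-fold under the median of the other 5 libraries there, against 14.8-fold (Lef1) to 55.7-fold (Dlx3) for the other matrix regulators.

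**Figure D4:**
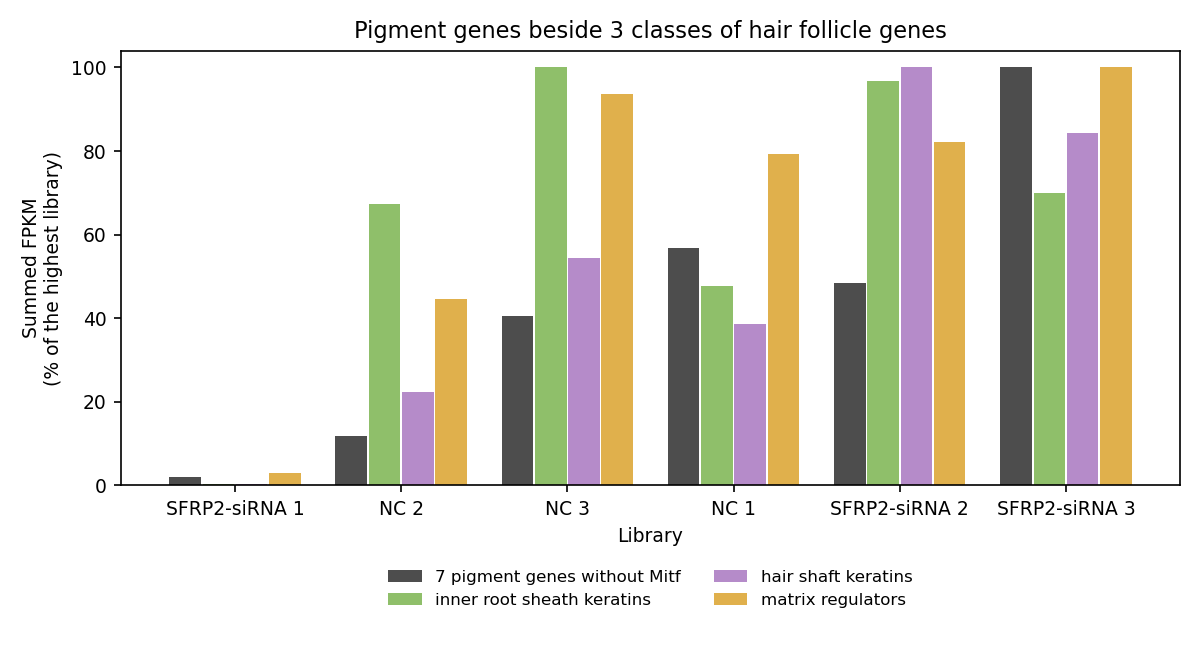
Summed FPKM of the 7 pigment genes without Mitf and of 3 classes of hair follicle genes in each library, as a percent of the library where that class is highest, with the libraries ordered by pigment level. In SFRP2-siRNA 1 all bars are under 3%, and in NC 2 the pigment genes reach 11.8% while the inner root sheath keratins reach 67.3%.

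Genes listed for the bulge, a part of the follicle outside its growing bulb, showed no such gap as a sum, but single genes did. Their summed FPKM was 194.5 in SFRP2-siRNA 1, of which Krt15 made up 161.3, and 169.8 to 301.7 elsewhere. Of the 8, 0 had an unadjusted p under 0.05. Without SFRP2-siRNA 1, Cd34 alone was under it (limma, unadjusted p = 0.0248, adjusted p = 0.479). Krt15 had 118.7 to 240.9 FPKM and Cd34 12.0 to 28.6. Lowest in SFRP2-siRNA 1 were 4 of the 8, against 14.3% of all genes. These were Sox9 (2.34 FPKM there and 6.14 to 15 elsewhere), Tbx1 (1.35 and 7.23 to 13.2), Lhx2 (1.43 and 5.34 to 9.02) and Lgr5 (1.22 and 1.53 to 3.89). Epidermal genes, led by Krt14, Krt5, Krt10 and Krt1, summed to 7148 FPKM in SFRP2-siRNA 1, the most of any library, and to 3514 FPKM in SFRP2-siRNA 3, the least. These sums were carried by Krt14 and Krt5, and Ivl was lowest in SFRP2-siRNA 1 as the pigment genes were. Of the 8 genes 1, the cornified envelope gene Lor, had an unadjusted p under 0.05, lower in SFRP2-siRNA, against 9.58% of all genes in either direction.

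Cell types that share genes with the pigment cell were followed as well. Mast cell genes, led by Cma1, Mcpt4, Hdc and Tpsb2, summed to 112.3 to 117.2 FPKM in NC and 148.4 to 240.5 FPKM in SFRP2-siRNA, with 5 of 8 at an unadjusted p under 0.05, all higher, against 1075 of all 16005 genes that were higher at that p, or 6.72%. Macrophage genes, led by Lyz2, C1qb, C1qa and Cd68, summed to 963.9 to 1568 FPKM in NC and 1748 to 2347 FPKM in SFRP2-siRNA, with 5 of 8 under that p, all higher, against the same 6.72%. Mast cell and macrophage sums were both highest in SFRP2-siRNA 1, the library with Mitf at 3.15 FPKM and the other pigment genes at their lowest. Fibroblast genes, led by Col3a1, Col1a1, Col1a2 and Dcn, had 6 of 6 under that p, all higher, also against 6.72%. Without SFRP2-siRNA 1, no macrophage gene stayed under that p (limma, smallest unadjusted p = 0.0686, for Lyz2). Cma1, Mcpt4, Tpsb2 and Fcer1a of the mast cell genes stayed under it, as did Col1a2, Dcn and Lum of the fibroblast genes. Median log2 fold changes went from 0.70 to 0.58 (mast cell), 0.72 to 0.56 (macrophage) and 0.87 to 0.80 (fibroblast). None of the mast cell, macrophage or fibroblast genes was called after adjustment, and none was at 0 in any library. The part of these cells in the levels of Mitf was not tested.

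The genes outside the set whose levels followed the pigment genes most closely were taken by Pearson's r with the mean centred log2 level of the 8 members. Over the 6 libraries the 10 nearest were Krt90, Trpm1, Cybrd1, Wnt10b, Wif1, Scube3, Tspear, Krt18, Gm12240 and Lef1, each with an r of 0.99. Without SFRP2-siRNA 1 and NC 2 their r was 0.87 to 1.00 over 4 libraries. Trpm1 is the melanocyte channel named above, and Wnt10b and Lef1 belong to the Wnt pathway that is active in the hair matrix. Wnt10b had 4.72, 2.55 and 5.11 FPKM in NC 1 to 3 and 0.801, 5.68 and 9.02 FPKM in SFRP2-siRNA 1 to 3. Gm12240 rested on at most 11 reads in a library. Of the 16005 genes tested, 382 had an r above 0.9 with this measure, so over 6 shared libraries a high r singles out none of these genes.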

How the data were processed

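RNA-seq of wound tissues was available as a single table. Paired-end mRNA libraries were made, the authors deposited FPKM values, and the submitters' processing notes name HISAT2, Subread and featureCounts, with no versions. The genome build and annotation behind the table were not given in the sources used here. Symbols matched 32582 of 33184 IDs.

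FPKM values fit no count model, so limma 3.58.1 (R 4.3.3) with an intensity trend was run on log2(FPKM + 1) over the 16005 genes that averaged 0.5 FPKM or more, two-sided, with Benjamini-Hochberg adjustment. The thresholds follow the study's methods, an adjusted p under 0.05 and an absolute log2 fold change above 1. Single genes also had an exact permutation test. With GENCODE vM21 gene lengths, FPKM values gave whole reads, within 0.05 of a read, for 98.7% of values under 200 reads, and read numbers given here come from this. Of values of 1 to 20 reads 64.6% were even, as when mates are counted singly, so reads are not independent. No 2 libraries were identical.

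The members, the gene lists and the rule for named genes were chosen with earlier results of these data known. All 8 members and Sfrp2 were named, with every gene of the regulator, receptor, ligand, melanosome membrane and Mitf family lists, the 4 most abundant of each other list and the 10 nearest by correlation. Other genes, such as Mlph, were named after their values were seen. Asip and Krt85 were not matched in the table. A further list of cell type markers is not reported here. Group numbers were taken from the titles. Deviations of same-numbered libraries had correlations of -0.05, -0.15 and 0.38 for replicates 1, 2 and 3, positive in replicate 3 only. They were not paired in the main fit. The alternatives were other pseudocounts, filters, scalings and weights, no trend, a replicate block and leaving out each library. Voom on the recovered reads was added after the data were seen. The test was tried on simulated data first.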

Additional observations from a re-analysis of the deposited data

How the results depend on the processing

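None of the 8 members was called under any alternative, and over 127 refits of single members the smallest adjusted p (limma) was 0.412. The direction was less stable, with 27 of these refits on the other side of 0, 16 of them leaving out a library. With a pseudocount of 0.1, Tyr was at -0.17, Oca2 at -0.00088 and Slc45a2 at -0.22. Rescaling to equal sums put Dct at 0.04. Estimated library weights put Tyrp1 at 0.89, Dct at 0.87, Pmel at 0.89 and Mlana at 0.35. Voom on recovered reads put Tyr at -0.34, Oca2 at -0.77 and Slc45a2 at -0.45. The cause was not tested.

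Leaving out each library in turn gave -0.44 to 0.98 for Tyr, -1.25 to 1.23 for Tyrp1, -0.87 to 1.18 for Dct, -1.25 to 1.18 for Pmel and -1.57 to 0.77 for Mlana. It gave -0.0014 to 0.41 for Mitf, -0.19 to 1.04 for Oca2 and -0.37 to 0.82 for Slc45a2. The lowest value came without SFRP2-siRNA 3, for Mitf without NC 1, and the highest without SFRP2-siRNA 1. The median of the members was -0.66 to 1.01 over these fits and -0.43 to 0.71 under the other alternatives. Over all genes the median moved from 0.125 to 0.196 with equal sums and to 0 when scaled by median-of-ratios. A filter at 2 FPKM left out Oca2. With the replicate block, 0 members were called and the median was 0.05, and Mitf had the smallest p (limma, unadjusted p = 0.0999, adjusted p = 0.441). Over all genes, 887 (without NC 1) to 2233 (library weights) passed an unadjusted p under 0.05, against 1533.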
